A study of Mus musculus with 14 samples.

Results

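A group of 7 genes with higher array signal in the knockout livers and outside the metabolic pathways are described here: Slc35f2, Chrna2, Epha2, Fam13b, Omd, Pbld2 and Adam32. They are 7 of 19505 named genes, were found by their symbols, and each had 1 row on the array. They were chosen by their higher log2 values in the knockout arrays of this same comparison, so their knockout differences are given as a description, with no test. They had been proposed as robust risers from these same values, so the counts of calls that follow describe how the calls depend on single arrays and are no test of that name. Slc35f2, Chrna2, Epha2 and Fam13b stayed among the genes called higher whichever single array was left out, Omd and Pbld2 did not, and Adam32 was not called over all arrays. Knockout 7 and 8 carry in their descriptions the numbers of knockout 5 and 6, and whether they are separate animals is not known here. They are counted as samples in n = 8, and with 5 and 7, and 6 and 8, averaged Pbld2 was no longer called while the 7 differences ran from 0.35 to 1.06. None of the 7 was called when control 1 and control 4, or knockout 7 and 8, were left out together. Of all 19505 genes only 26 and 12 were called in these fits, against 137 over all arrays. Nothing particular to the 7 is read from those counts.

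Liver RNA was measured on Affymetrix arrays in 14 samples from male mice of the C57BL/6 background, homozygous for floxed alleles of both AMPK alpha1 and alpha2 (genes Prkaa1 and Prkaa2). The mice were 6 weeks old when a high-fat diet (60% of calories) began, and after 4 weeks of it they received an adeno-associated virus, AAV8, by the jugular vein. The control group (6 samples) received AAV8-TBG-empty vector and the knockout group (8 samples) AAV8-TBG-Cre. Both groups then had metformin at 50 mg/kg/day for 3 weeks and were fasted for 16 h, so no metformin-free liver was analysed here. TBG is a hepatocyte promoter, so other liver cells would keep both AMPK alpha genes. The stated age is 4 months. No label states whether the samples are separate mice. Each p-value therefore judges a result only against the scatter or the rearrangement of these samples, and some of their scatter may be technical. In whole liver, fewer cells of a type and less RNA per cell cannot be told apart.

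AMP-activated protein kinase (AMPK) is a complex of a catalytic alpha, a scaffold beta and a nucleotide-sensing gamma subunit that is switched on when cellular energy falls. In liver it is best known for restraining fat and sterol synthesis and for its debated part in the action of metformin. The 7 genes belong to no common pathway: they encode a membrane transporter, an ion channel subunit, a receptor kinase, a GTPase-activating protein, a matrix proteoglycan, a cytosolic protein of little-known function and a member of a membrane protease family.

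Correlations between the arrays divided them into 2 sets, which no label names but which follow the order of the sample numbers within each group. Control 1 to 3 formed set 1 together with knockout 1 to 4, and the remaining arrays (control 4 to 6, knockout 5 to 8) formed set 2. Correlations were 0.988 to 0.994 within a set and 0.951 to 0.963 across sets, and 11.0% of all genes differed by over 1 on the log2 scale between the set means. The set was therefore a term in the limma fit, and each gene is given within each set. Prkaa2 was lower in every knockout array than in every control array of its set, with a difference of -1.11 on the log2 scale in set 1 (means 8.84 and 7.73) and -1.15 in set 2 (means 9.77 and 8.63). Prkaa1 was also lower in every knockout array, with differences of -0.48 and -0.85 in the sets. Hepatocyte markers were bright on all arrays (mean of 8 genes 12.19 to 12.71), and 0 of the 8 were called in either direction, beside 0.702% of all genes.

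With a term for the set (limma, Benjamini-Hochberg adjusted p under 0.05), 6 of the 7 genes were among the 84 genes called higher, which are 0.431% of all genes. The choice of the genes fixes that count, and nothing is read from it. Their median difference was 0.62 on the log2 scale, against 0.00 over all 19505 genes and 0.48 over the 84. The genes nearest the threshold were Gm3417 (0.77 ± 0.17, SE, adjusted p = 0.0475) and Nom1 (0.31 ± 0.07, adjusted p = 0.0454) inside it in limma, and Eda2r (0.60 ± 0.13, adjusted p = 0.0504) and Cgref1 (0.40 ± 0.09, adjusted p = 0.0506) outside it. In 5 of the 7 genes every knockout array lay above every control array of its set in both sets, as in 0.774% of all genes. All 7 did so in set 1 (5.47% of all genes) and 5 in set 2 (3.8%). The exceptions in set 2 were Omd and Adam32.

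**Figure D1:**
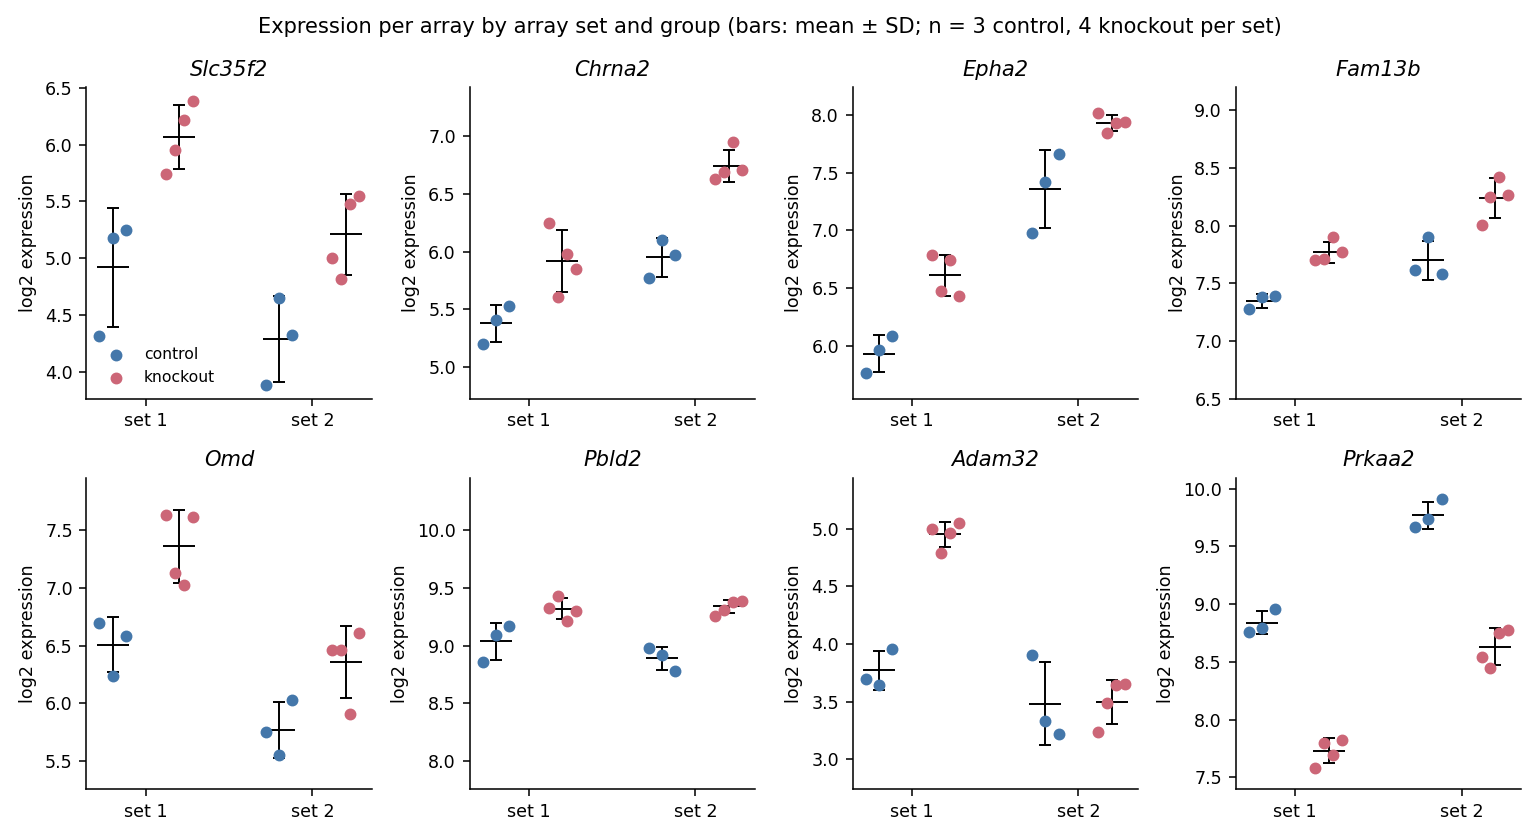
Log2 expression of the 7 genes and Prkaa2 on each array, by array set and group, with the mean and SD as black bars (3 control and 4 knockout arrays per set). In set 2 the Adam32 knockout arrays (3.24 to 3.65) lie within the range of the controls (3.22 to 3.90), and in Omd 1 knockout array (5.91) lies below the highest control (6.03).

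Slc35f2 encodes a solute carrier of the SLC35 family, whose human form is known for bringing the cytotoxic compound YM155 into cells. In set 1 the control arrays read 4.32, 5.18 and 5.25 on the log2 scale and the knockout arrays 5.74, 5.95, 6.22 and 6.38. In set 2 the controls read 3.89, 4.65 and 4.33 and the knockouts 5.00, 4.82, 5.48 and 5.55. The groups did not overlap in either set, and the lowest control of each set was control 1 or control 4. Knockout minus control was 1.04 ± 0.17 (SE, n = 6 and 8), or 2.06-fold, with 1.16 in set 1 and 0.92 in set 2. This was the second largest difference among the 84 genes called higher. The signal was low: relative to the median of their array the 6 controls lay at -2.06 to -0.61 and the 8 knockouts at -1.13 to 0.56. Without control 1 and control 4 the difference was 0.79.

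Chrna2 encodes the alpha2 subunit of nicotinic acetylcholine receptors, ion channels opened by acetylcholine and best known in nerve and muscle. The set 1 controls read 5.20, 5.41 and 5.53 and the knockouts 6.25, 5.61, 5.98 and 5.85. The set 2 controls read 5.77, 6.10 and 5.97 and the knockouts 6.63, 6.69, 6.95 and 6.71. The groups were separate in both sets, narrowly in set 1, where knockout 2 lay 0.09 above the highest control. The difference was 0.67 ± 0.10 (SE, n = 6 and 8), or 1.59-fold, with 0.54 in set 1 and 0.80 in set 2.

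Epha2 encodes a receptor tyrosine kinase that binds ephrin-A ligands on neighbouring cells. Its set 1 controls read 5.76, 5.96 and 6.08 and its knockouts 6.79, 6.47, 6.74 and 6.43. In set 2 the controls read 6.98, 7.42 and 7.66 and the knockouts 8.02, 7.84, 7.93 and 7.94. The 4 knockouts of set 2 were close together (SD 0.07) while the 3 controls were spread (SD 0.34), with control 4 the lowest. The difference was 0.62 ± 0.10 (SE, n = 6 and 8), or 1.54-fold, and it was 0.49 without control 1 and control 4. Epha2 had the largest gap between the sets of the 7 genes, with set 2 higher by 1.37.

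Fam13b encodes a protein with a GTPase-activating domain. The set 1 controls read 7.28, 7.38 and 7.39 and the knockouts 7.70, 7.71, 7.90 and 7.77. The set 2 controls read 7.62, 7.90 and 7.58 and the knockouts 8.01, 8.25, 8.42 and 8.27. No knockout array overlapped the controls of its set, and knockout 5 came nearest, 0.11 above control 5. The difference was 0.48 ± 0.08 (SE, n = 6 and 8), or 1.39-fold, with 0.42 in set 1 and 0.54 in set 2.

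Omd encodes osteomodulin, a small leucine-rich proteoglycan first described in bone matrix. In set 1 the controls read 6.70, 6.24 and 6.58 and the knockouts 7.63, 7.13, 7.03 and 7.62. In set 2 the controls read 5.75, 5.55 and 6.03 and the knockouts 6.46, 6.46, 5.91 and 6.61. The groups overlapped in set 2 through knockout 7 alone, which lay 0.12 below control 6. The difference was 0.72 ± 0.14 (SE, n = 6 and 8), or 1.64-fold. Omd was no longer called in 7 of the 14 fits that each leave out 1 array, namely without control 1, 2, 4 or 5 and without knockout 1, 4 or 8, while the difference itself stayed between 0.64 and 0.80.

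Pbld2 encodes a phenazine biosynthesis-like domain protein whose role in mouse liver is not well known. The set 1 controls read 8.86, 9.09 and 9.17 and the knockouts 9.33, 9.43, 9.21 and 9.30. The set 2 controls read 8.98, 8.92 and 8.78 and the knockouts 9.26, 9.31, 9.38 and 9.39. Pbld2 had the smallest difference of the 7, 0.36 ± 0.07 (SE, n = 6 and 8) or 1.28-fold, and the least gap between the sets, -0.05. In set 1 the lowest knockout exceeded the highest control by 0.04. It was called in 3 of the 14 fits that each leave out 1 array (without control 3, knockout 3 or knockout 5), with differences from 0.33 to 0.40.

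Adam32 encodes a member of the ADAM family of membrane-anchored proteins with a disintegrin and a metalloprotease-like domain, known mainly from the testis. In set 1 the controls read 3.70, 3.64 and 3.96 and the knockouts 5.00, 4.79, 4.96 and 5.05. In set 2 the controls read 3.90, 3.33 and 3.22 and the knockouts 3.24, 3.49, 3.64 and 3.65. The groups were 0.83 apart in set 1 and overlapped fully in set 2, so the knockout difference was 1.18 in set 1 and 0.02 in set 2. The difference over both sets, 0.60 ± 0.18 (SE, n = 6 and 8), averages these unlike values and was not called in limma over all arrays or in any of the 14 fits that leave out 1 array. All 14 values lay below the median of their array, at -2.73 to -0.77 from it, and the background level of these arrays is not known here.

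**Figure D2:**
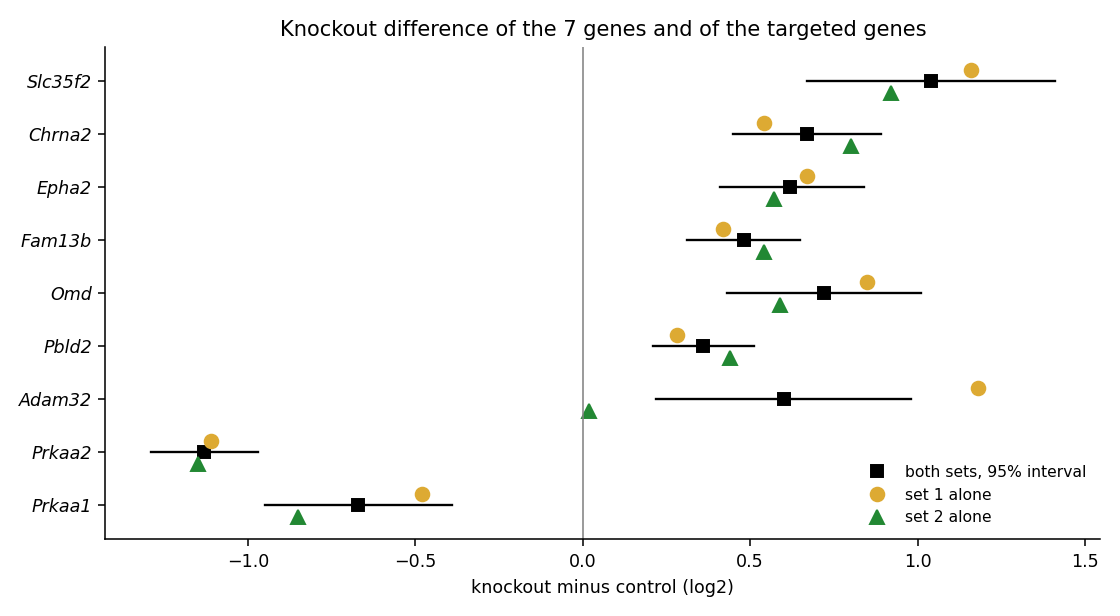
Knockout minus control on the log2 scale for the 7 genes and the targeted genes Prkaa2 and Prkaa1, over both sets (squares, with 95% intervals from limma) and within set 1 (circles) and set 2 (triangles). The 2 sets lie on either side of the square for every gene, close together for Epha2 (0.67 and 0.57) and far apart for Adam32 (1.18 and 0.02).

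Whether the knockout difference itself differed between the sets was tested by the interaction term in limma, a contrast that the difference over both sets does not use. Of all 19505 genes 0 passed (0.0%), and 943 (4.83%) had an unadjusted p under 0.05. For 6 of the 7 genes the difference in set 2 minus that in set 1 lay between -0.26 (Omd, 95% interval -0.85 to 0.32) and 0.26 (Chrna2, 95% interval -0.18 to 0.69), with adjusted p = 0.998 for each. The intervals are wide: for Slc35f2 the value was -0.23 with an interval of -0.99 to 0.52. Adam32 stood apart at -1.16 (95% interval -1.63 to -0.69), the second smallest p of all genes in this test, but not past the threshold (adjusted p = 0.818). As Adam32 was also 1 of 2 genes called in set 1 alone, that contrast is not independent of how it came to notice. Prkaa2, in contrast, differed between the sets by -0.04 (95% interval -0.37 to 0.30).

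The sets also differed in the level of these genes, apart from the knockout. In the controls alone, set 2 minus set 1 was 1.42 for Epha2, 0.57 for Chrna2 and 0.35 for Fam13b. It was -0.73 for Omd, -0.63 for Slc35f2, -0.29 for Adam32 and -0.14 for Pbld2. The 7 genes thus moved in both directions between sets, and a comparison that mixed arrays of different sets would carry these gaps. Without the set term none of the 7 was called, but neither was any other of the 19505 genes, so nothing is read from that count. The SE was then 0.37 in place of 0.10 for Epha2, which had the largest gap, and 0.08 in place of 0.07 for Pbld2, which had the smallest.

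Co-variation with Prkaa2 was examined in the deviations of each array from the mean of its own group and set, because Prkaa2 separates the groups by construction. The Prkaa2 deviations were small, from -0.18 in knockout 6 to 0.15 in knockout 8. Over all 14 arrays Slc35f2 had the highest correlation (Pearson's r = 0.69, two-sided exact permutation within group and set p = 0.0225; Spearman's coefficient = 0.73, p = 0.0162). Adjusted over the 7 genes these were 0.158 and 0.113, so neither passed. The correlation was positive in each set (r = 0.63 in set 1 and 0.77 in set 2, 7 arrays each) and was 0.70 without the 2 arrays farthest from the median of Prkaa2. In set 1 it was 0.32 without the 2 farthest arrays of that set. On 4 arrays (control 2, control 5, knockout 2 and knockout 3) the deviations of Slc35f2 and Prkaa2 had opposite signs.

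The other 6 genes had correlations from -0.03 (Omd) to 0.25 (Pbld2) with Prkaa2 over 14 arrays, with exact permutation p from 0.407 to 0.961 and adjusted p = 0.961 for each. Spearman's coefficient ran from -0.02 (Omd) to 0.36 (Fam13b), with exact permutation p from 0.319 to 0.968. The sets did not always have the same sign: Chrna2 had r = -0.41 in set 1 and 0.49 in set 2, and Epha2 -0.32 and 0.54. Of 14 correlations within single sets, 0 passed after adjustment (smallest adjusted p = 0.845 for Pearson's r and 0.680 for Spearman's coefficient, exact permutation). With 144 arrangements the smallest possible p in a set is 0.00694, and over both sets, with 20736, it is 4.82e-05. Without the 2 farthest arrays Omd moved from -0.03 to -0.34 and Epha2 from 0.23 to 0.05, so these small values depend on the 2 arrays. These values, like those for Slc35f2 above, kept the group and set means of all 14 arrays. With means taken from the remaining arrays, Omd was at -0.43 and Epha2 at -0.03.

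**Figure D3:**
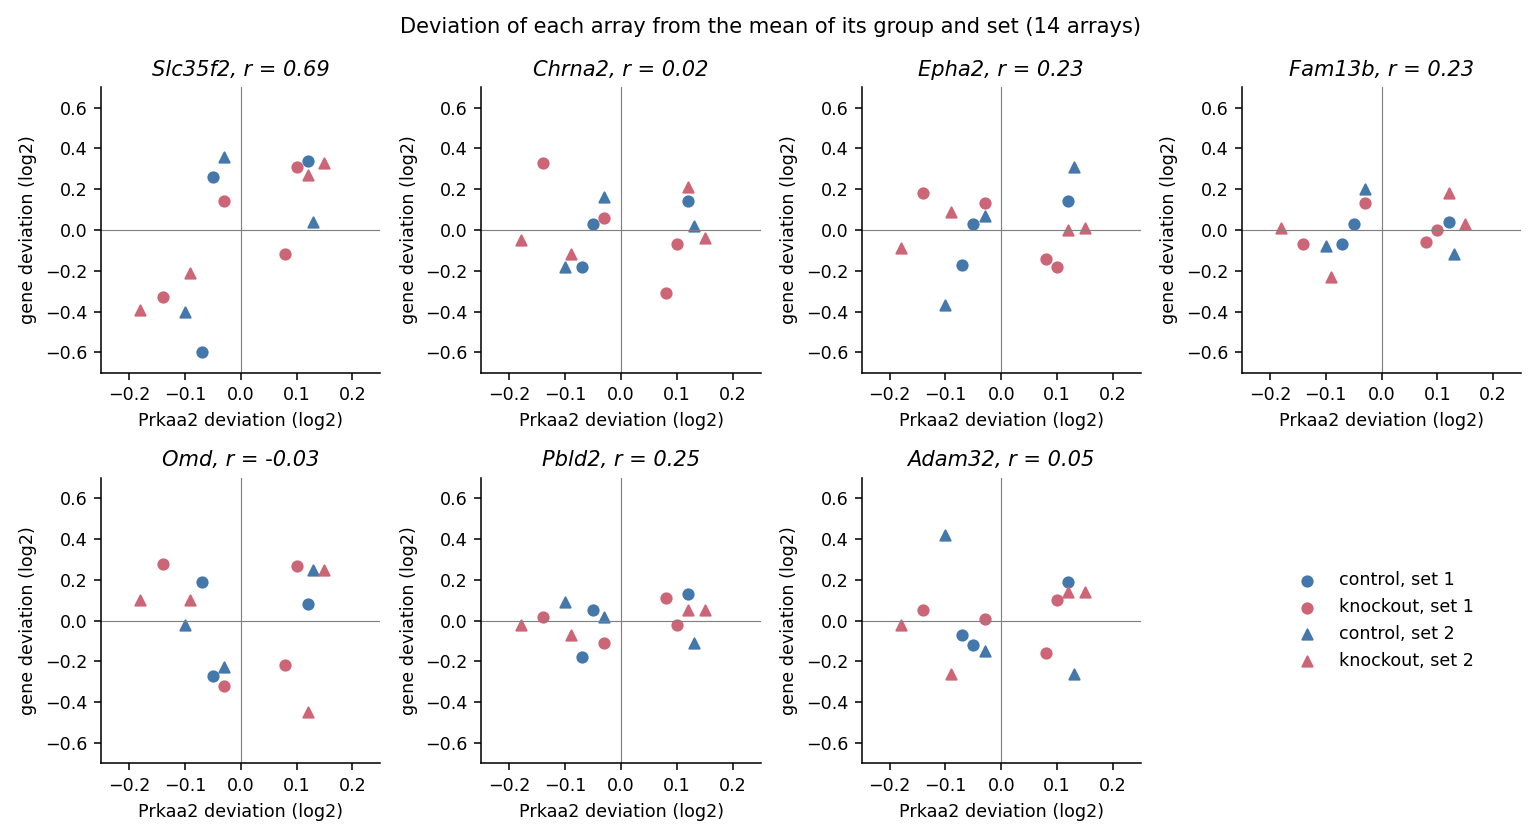
Deviation of each gene (vertical axis, log2) against that of Prkaa2 (horizontal axis, log2) from the mean of the same group and set, with control arrays in blue, knockout arrays in red, set 1 as circles and set 2 as triangles. The points tend to rise from left to right for Slc35f2 (r = 0.69) and show no slope for Chrna2 (r = 0.02), Omd (r = -0.03) or Adam32 (r = 0.05).

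Among themselves the 7 genes formed 21 pairs, of which 15 had a positive correlation of deviations over the 14 arrays (median r = 0.11). The highest were Chrna2 with Epha2 (r = 0.64, Spearman's coefficient = 0.65, exact permutation p = 0.0314 and 0.0465) and Slc35f2 with Fam13b (r = 0.61, Spearman's coefficient = 0.71, exact permutation p = 0.0341 and 0.0173). The lowest was Fam13b with Omd (r = -0.61, Spearman's coefficient = -0.61, exact permutation p = 0.0497 and 0.0323). Without the 2 arrays farthest from the median of the first gene, r was 0.59, 0.60 and -0.65 in these 3 pairs. None of the 21 passed after adjustment (adjusted p = 0.348 for r and 0.310 for Spearman's coefficient in each of the 3). Omd had negative values with 4 of the other 6 genes, among them -0.32 with Slc35f2 and -0.27 with Pbld2.

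**Figure D4:**
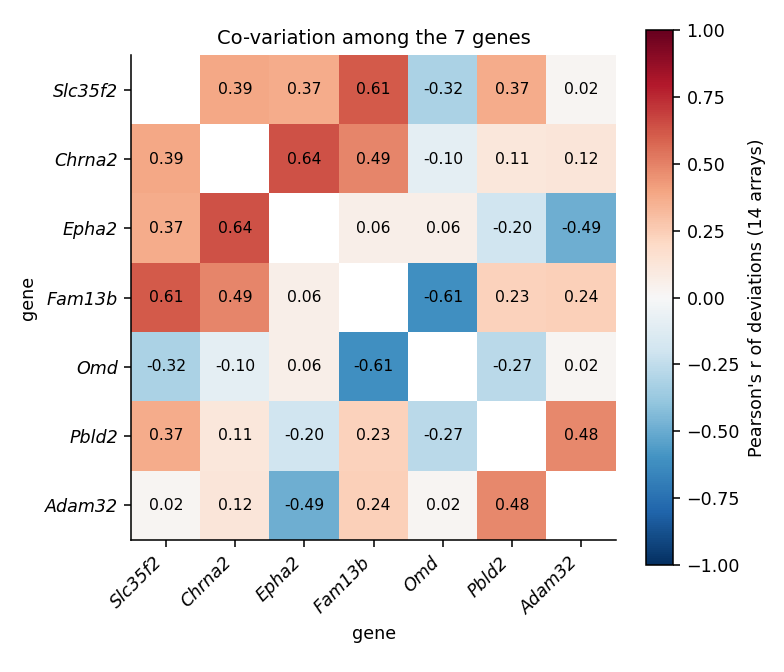
Pearson's r between the deviations of each pair of the 7 genes from the mean of the same group and set over 14 arrays, from blue (-1) to red (1). Values range from -0.61 (Fam13b with Omd) to 0.64 (Chrna2 with Epha2).

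Signals of other liver cell types were set beside the 7 genes. None of the 8 marker lists had a member called in either direction. As 0.702% of all genes were called, lists this short would hold few calls or none, and nothing is read from that. Kupffer cell markers (9 genes, 8 with a positive difference, median 0.05) averaged 8.01 to 8.88 in the controls and 8.10 to 8.93 in the knockouts of set 1, and 8.25 to 8.71 and 8.34 to 8.96 in set 2. Liver endothelial markers (10 genes, 4 positive, median -0.01) averaged 6.83 to 8.00 and 7.22 to 7.88 in set 1, and 7.76 to 8.53 and 8.16 to 8.66 in set 2. No gene of either list lay below the median of every array. Among the other lists, all genes lay on one side in lymphocyte (6 of 6 positive, median 0.14) and mesothelium (0 of 4 positive, median -0.25). The red blood cell list had only 1 measured gene, at -0.17. Lymphocyte markers, of which 4 lay below the median of every array, averaged 4.97 to 5.44 in the controls and 5.26 to 5.43 in the knockouts of set 1, and 4.69 to 4.86 and 4.92 to 5.20 in set 2. Mesothelium markers averaged 5.91 to 6.48 and 5.44 to 6.14 in set 1, and 5.45 to 5.74 and 5.22 to 6.21 in set 2. Stellate cell and fibroblast markers had 4 of 11 positive and bile duct markers 3 of 6. Control 1 and control 4 were low for both lists, at -0.55 and -0.29 (Kupffer) and -0.76 and -0.51 (endothelium) from the mean of their group and set, and each was also the lowest array of its set for Slc35f2, Chrna2 and Epha2. This did not hold for both arrays in the other 4 genes. Control 1 was the lowest control of its set for Fam13b and Pbld2 and the highest for Omd. Control 4 was the highest control of its set for Pbld2 and Adam32. Knockout 1 and knockout 5 were also low for both lists, at -0.45 and -0.32 (Kupffer) and -0.31 and -0.22 (endothelium). Knockout 1 was the lowest knockout of its set for Slc35f2 and Fam13b but the highest for Chrna2, Epha2 and Omd. Knockout 5 was the lowest knockout of its set for Chrna2, Fam13b, Pbld2 and Adam32 but the highest for Epha2.

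Deviations of Slc35f2 followed those of the Kupffer list (r = 0.78, Spearman's coefficient = 0.63, exact permutation p = 0.00984 and 0.0364), and r was 0.63 without the 2 farthest arrays. Fam13b had r = 0.67 and Spearman's coefficient = 0.73 with the same list (exact permutation p = 0.00545 and 0.00169), and Omd had r = -0.66 and Spearman's coefficient = -0.75 (exact permutation p = 0.0251 and 0.00747). Of 56 relations between the 7 genes and the 8 lists none passed after adjustment (adjusted p of 0.275, 0.275 and 0.438 for these r, and 0.378, 0.0945 and 0.209 for Spearman's coefficient). The part of these cell types in the knockout differences was not tested. Without control 1 and control 4 the differences ran from 0.34 (Pbld2) to 0.79 (Slc35f2), all positive. None of the 7 genes was called with the remaining 12 arrays, where only 26 of all 19505 genes were called.

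Relatives of the 7 genes were examined by family in the same limma fit, over 119 measured genes of 9 lists. Of these, 1 was called higher and none lower, beside 0.431% and 0.272% of all genes, so nothing is read from these counts. A positive difference was found in 56, against 50.6% positive among all genes. The called gene was Slc35e3, a little-studied SLC35 transporter, at 0.48 ± 0.09 (SE, n = 6 and 8, adjusted p = 0.0254 in limma, means 6.64 and 7.12). The other 23 measured SLC35 genes ran from -0.30 to 0.27, and none was called. The lowest was Slc35f3 (-0.30 ± 0.15, adjusted p = 0.519 in limma), and the other measured genes of the same subfamily were Slc35f1 (0.10 ± 0.10), Slc35f4 (0.11 ± 0.13) and Slc35f5 (0.08 ± 0.07).

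None of the 15 other nicotinic subunit genes was called, and 13 of them lay below the median of every array. Their differences ran from -0.23 for Chrnd (adjusted p = 0.566 in limma) to 0.18 for Chrna3 (adjusted p = 0.503 in limma). The nicotinic beta subunits with which alpha2 forms channels had 0.11 ± 0.11 for Chrnb2 and 0.05 ± 0.08 for Chrnb4 (SE; adjusted p = 0.807 and 0.920 in limma). Among 11 genes of acetylcholine handling and muscarinic receptors, Lynx1, a nicotinic receptor modulator, had the largest difference (-0.37 ± 0.12, adjusted p = 0.237 in limma), followed by the muscarinic receptor gene Chrm3 (-0.20 ± 0.12, adjusted p = 0.594).

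Of 12 other Eph receptors 0 were called, beside 0.431% of all genes called higher and 0.272% lower, so nothing is read from that count. Their differences ran from -0.21 (Epha3, adjusted p = 0.585 in limma) to 0.11 (Epha4), with Ephb4 at -0.18 ± 0.11 (adjusted p = 0.621). The ligand genes were near 0 or below it, with 2 of 8 ephrins positive and none called. Efna1, the preferred ligand of the EphA2 receptor, was at -0.18 ± 0.13 (SE; adjusted p = 0.713 in limma; 95% interval -0.46 to 0.11), and Efna2 at -0.17 ± 0.11 (adjusted p = 0.649).

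Fam13a, the closest relative of Fam13b, was at 0.37 ± 0.10 (SE; adjusted p = 0.139 in limma; 95% interval 0.15 to 0.59), and Fam13c at 0.11 ± 0.13 (adjusted p = 0.855). Pbld1, which lies next to Pbld2, was at 0.10 ± 0.07 (adjusted p = 0.677 in limma; 95% interval -0.05 to 0.24). Pbld1 and Pbld2 are close copies, and whether the array's probes tell them apart is not known here. Of 15 other small leucine-rich proteoglycans 7 were positive and none was called, with Podnl1 (0.25 ± 0.16, adjusted p = 0.644 in limma) and Ecm2 (0.15 ± 0.18, adjusted p = 0.855 in limma) highest and Dcn, an abundant matrix proteoglycan of stellate cells, at 0.02 ± 0.11. Of 31 other ADAM genes 17 were positive and none was called. The largest difference there was that of Adam11, at -0.98 ± 0.26 (adjusted p = 0.115 in limma), on a row below the median of every array.

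**Figure D5:**
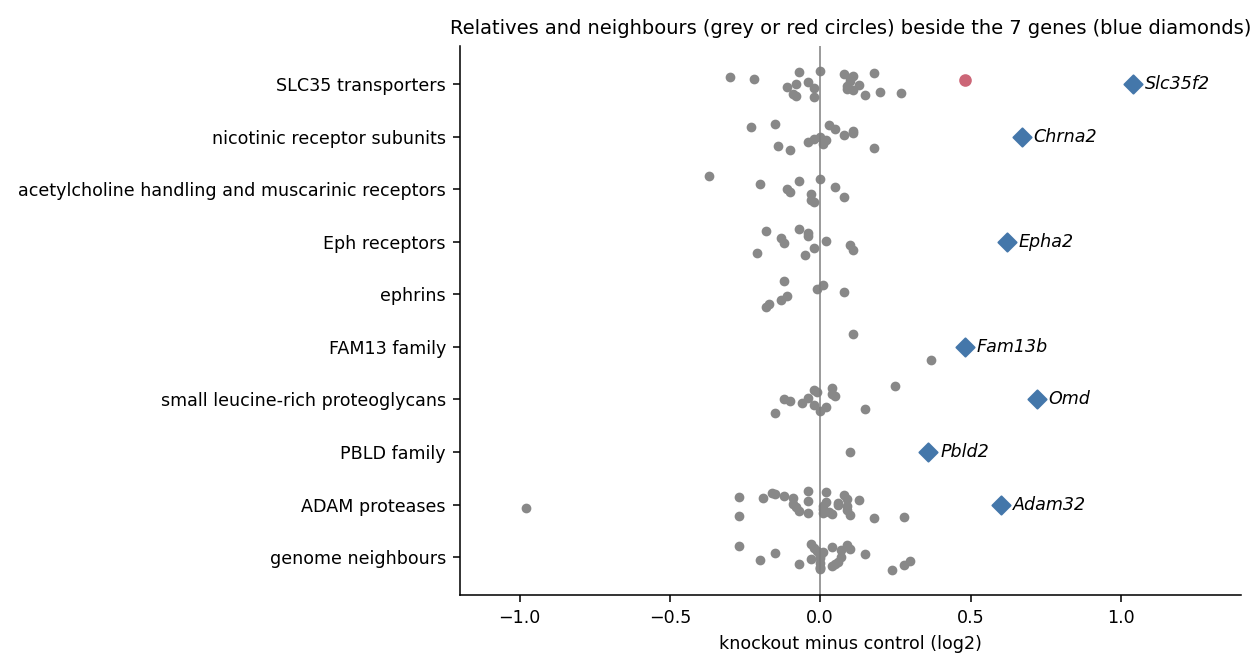
Knockout minus control on the log2 scale (horizontal axis, limma with the set as a term) for the measured relatives of the 7 genes by family and for their genome neighbours (circles, red where called), with each of the 7 genes as a blue diamond. The single red circle is Slc35e3 (0.48), and the 28 neighbours lie between -0.27 and 0.30.

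The genes next to the 7 on the chromosome were also read, 2 on each side in the RefSeq gene order, 28 in all. Of these 0 were called, beside 0.702% of all genes, so nothing is read from that count. The median difference was 0.00, and 13 were positive, beside 50.6% of all genes. In limma 4 had an unadjusted p under 0.05, and the share of all genes under it in this fit is not given here. Omd lies in a cluster of related proteoglycan genes, of which Aspn (0.00 ± 0.15), Ogn (-0.15 ± 0.20) and Ecm2 (0.15 ± 0.18) had intervals that include 0. Beside Adam32 were Adam9 (0.09 ± 0.08), Adam5 (0.04 ± 0.07) and Adam3 (-0.27 ± 0.12, adjusted p = 0.440 in limma). The largest neighbour differences were those of Fam131c beside Epha2 (0.30 ± 0.14, adjusted p = 0.469 in limma) and of Adam2 near Chrna2 (0.28 ± 0.12, adjusted p = 0.385 in limma).

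For 4 of the 7 genes the RefSeq promoter table (GRCm38.p6) held the stretch from 250 bases before to 50 after the start, each 300 bases on the plus strand. They are shown because these genes were all higher in the knockout arrays. They are chr9:53771285-53771584 for Slc35f2, chr4:141300971-141301270 for Epha2, chr13:49582212-49582511 for Omd and chr10:63024262-63024561 for Pbld2. Capitals mark matches, on either strand, to 8 searched motifs.
Slc35f2: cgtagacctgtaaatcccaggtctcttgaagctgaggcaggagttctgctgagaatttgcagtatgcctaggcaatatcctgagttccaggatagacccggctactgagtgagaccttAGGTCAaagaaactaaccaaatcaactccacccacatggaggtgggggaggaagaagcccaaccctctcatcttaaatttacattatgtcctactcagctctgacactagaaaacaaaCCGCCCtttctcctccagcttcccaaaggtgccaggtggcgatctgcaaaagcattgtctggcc
Epha2: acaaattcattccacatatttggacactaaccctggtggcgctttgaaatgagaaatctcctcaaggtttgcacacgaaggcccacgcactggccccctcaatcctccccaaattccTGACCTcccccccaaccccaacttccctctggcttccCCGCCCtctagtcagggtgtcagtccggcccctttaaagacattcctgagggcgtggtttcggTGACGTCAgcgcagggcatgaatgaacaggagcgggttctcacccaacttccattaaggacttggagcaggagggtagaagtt
Omd: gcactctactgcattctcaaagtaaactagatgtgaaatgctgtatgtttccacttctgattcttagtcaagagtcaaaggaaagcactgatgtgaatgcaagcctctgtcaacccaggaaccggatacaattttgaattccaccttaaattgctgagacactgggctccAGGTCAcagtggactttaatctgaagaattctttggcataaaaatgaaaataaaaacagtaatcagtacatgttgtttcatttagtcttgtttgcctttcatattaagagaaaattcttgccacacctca
Pbld2: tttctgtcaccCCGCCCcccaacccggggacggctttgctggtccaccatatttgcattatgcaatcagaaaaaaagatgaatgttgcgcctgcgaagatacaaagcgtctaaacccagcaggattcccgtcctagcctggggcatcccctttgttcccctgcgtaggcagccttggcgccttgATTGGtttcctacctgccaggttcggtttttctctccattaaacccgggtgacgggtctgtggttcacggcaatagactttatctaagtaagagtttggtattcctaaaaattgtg

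Each motif was searched as written here and as its reverse complement, and no matches overlapped. AGGTCA, the core element of many nuclear receptor sites, was in Slc35f2, Epha2 and Omd, or 3 of the 4, and in 16.3% of all 32851 promoters of that length. GGGCGG, the GC box, was in Slc35f2, Epha2 and Pbld2, and in 35.7% of all promoters. TGACGTCA, the cAMP response element, was in Epha2 alone, 33 bases before the start, and in 1.79% of all promoters. CCAAT was in Pbld2 and in 37.4% of all. The TATA box (TATAAA, 13.6% of all promoters), the E-box (CACGTG, 7.15%), the FOXO element (TGTTTAC, 3.65%) and the AP-1 element (TGACTCA, 5.2%) were in none of the 4. The promoters were unlike in base composition, from 37.7% G and C in Omd to 54.7% in Epha2, and from 1 CpG in Omd to 13 in Pbld2, beside a median of 52.7% and 7 CpG over all promoters. A match is a description of these letters, and no binding was measured.

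Genes whose pattern was most like each of the 7 were found by the correlation over 14 arrays of values minus the mean of their set, among all 19505 genes. These values contain the knockout difference that chose the 7 genes, so they are a description without a test. For Slc35f2 they were Mpp1 (r = 0.945), Bdh1, a 3-hydroxybutyrate dehydrogenase (0.941), and Tlcd4 (0.937). For Chrna2 they were the inhibin beta C gene Inhbc (0.915), the lipoprotein lipase inhibitor gene Angptl4 (0.909) and Vwa8 (0.906). Epha2 was most like Tsc22d1, a leucine zipper protein gene (0.961), G6pc, the glucose-6-phosphatase gene (0.950), and the organic anion transporter gene Slco1a1 (0.924).

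Fam13b was most like Inhbc (r = 0.955), Bdh1 (0.944) and the chaperone gene Hsp90aa1 (0.944), so it shared Inhbc with Chrna2 and Bdh1 with Slc35f2. Omd had lower values, with Fam13a (0.886), the keratin-associated Krtap4-6 (0.877) and Hint1 (0.876). Pbld2 was most like Apol9b (0.935), the proteasome subunit gene Psmb4 (0.930) and Tmem64 (0.921), and Adam32 like the replication helicase gene Mcm2 (0.938), Fam205a1 (0.882) and Chchd2 (0.876). The deviations leave out the knockout difference but are part of the values that chose these partners, and in them the same pairs had r from 0.50 (Pbld2 with Tmem64) to 0.92 (Epha2 with Slco1a1, and Omd with Krtap4-6).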

How the data were processed

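The deposited values are log2 expression, 1 row per transcript cluster and 1 column per sample. Per the submitters' processing notes RMA and Partek were used, with no versions given; the log2 scale was read from the values (2.13 to 13.8). Total RNA was labelled with the WT PLUS kit, per the labels' protocols. Arrays give no read depth, and their number limits the precision. Of 22206 rows, 19572 had 1 symbol (GEO's platform annotation, updated through RefSeq gene identifiers) and 2634 had none; of the 55 genes with over 1 row the brightest row was used, leaving 19505 genes. Values were used without further normalization or filter.

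The 2 array sets were found by average-linkage clustering of the correlations between arrays. The knockout and interaction contrasts were fitted over all genes with limma 3.58.1 in R 4.3.3 (linear model and empirical Bayes), with the set as a term and Benjamini-Hochberg adjustment over all genes. Correlations were tested by exact two-sided permutation of arrays within group and set. The fits were tested on simulated data. The genes, lists, set term and tests were chosen with earlier results of these data known. Named were the 7 genes, Prkaa1 and Prkaa2, called relatives or else the 2 largest differences of a family, 2 neighbours a side and the 3 most alike genes (predicted, RIKEN and small RNA genes left out of the neighbours and most alike genes); the genes nearest the threshold and other relatives were chosen after their values were seen. Marker lists were hepatocyte, liver endothelium, stellate cell and fibroblast, Kupffer cell, bile duct, lymphocyte, mesothelium and red blood cell, with median differences of 0.02, -0.01, -0.08, 0.05, -0.02, 0.14, -0.25 and -0.17. The last is the value of 1 measured gene. In their descriptions knockout 7 and 8 carry the same numbers as knockout 5 and 6; 0 pairs of arrays were identical, which does not show that they are separate animals; each was counted as a sample, with the pairs averaged as an alternative. Same-numbered control and knockout arrays had correlations of deviations from 0.02 to 0.09, so the numbers were not taken as pairs.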

Additional observations from a re-analysis of the deposited data

How the results depend on the processing

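The number of genes called for the knockout difference, 137 (84 higher, 53 lower), depended on the processing: 0 without the set term (655 at an unadjusted p under 0.05 in limma), 223 (139 higher, 84 lower) with genes whose higher group mean was under 5 left out, 325 (201 and 124) with trend and robust eBayes, 67 with knockout 5 and 7, and 6 and 8, averaged, 12 without knockout 7 and 8, 26 without control 1 and control 4, and 2 in each set alone. Leaving out 1 array gave 44 to 132. With the replicate number as a block 2 genes were called; same-numbered arrays share only a number (0 of 6 controls correlated best with theirs). The differences of the 7 genes kept their sign in all 188 recomputed values. The genes were chosen for a positive difference in these same arrays, so this is a description and no test. The differences moved by over 1 SD (that of the gene within group and set, pooled) in 2 values, both Adam32 (1.18 in set 1, 0.02 in set 2). None of the 7 was called without the set term, with the block, without knockout 7 and 8 or without control 1 and control 4. In set 1 alone only Adam32 of the 7 was called, and in set 2 alone none was. The fit without the set term kept all 14 arrays, and the fits without knockout 7 and 8 or without control 1 and control 4 had fewer. The block fit held all 14, but numbers 7 and 8 occur only among the knockouts. The 2 arrays numbered 4 lie in different sets. The block difference therefore rests on the arrays numbered 1, 2, 3, 5 and 6. The cause of the lost calls was not tested further. With quantile normalization, median centring, array weights or trend and robust eBayes the 6 called genes stayed called, and averaging the knockout pairs lost Pbld2. The interaction stayed at 0 genes, and co-variation with Prkaa2 at 0 of 7, under every alternative run for them. Adam32 has no value under the level filter.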
